A study of Mus musculus with 24 samples.

Results

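Kainate receptors are glutamate-gated ion channels, and 7 mouse genes encode their pore-forming subunits and auxiliary partners: Grik1, Grik2, Grik3, Grik4, Grik5, Neto1 and Neto2. They were taken by name as 7 of the 26667 genes in a table of RNA-seq read counts from the hippocampal dentate gyrus. The 24 libraries fell into 5 groups: APP/PS1 mice given BCI-838 plus exercise (5 libraries), APP/PS1 mice given BCI-838 (4), APP/PS1 mice given exercise (5), untreated APP/PS1 controls (5) and WT controls on C57BL6/J (5). APP/PS1 mice carry mutant amyloid precursor protein and presenilin transgenes and are used as a model of Alzheimer's amyloidosis; the sources used here do not give their age, sex or transgene promoter. BCI-838 is an oral pro-drug of an mGluR2/3 antagonist and was given at 5 mg/kg daily for 1 month, and exercise was free access to a running wheel over the same time; per the design text, mice without the drug had vehicle. Each library came from the dentate gyrus of a separate mouse as far as the labels tell. Total counts ran from 48656360 to 64632882 per library, and all 7 genes passed the filter on low counts.

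GluK1 to GluK3, encoded by Grik1 to Grik3, can form channels by themselves, whereas the high-affinity subunits GluK4 and GluK5, encoded by Grik4 and Grik5, reach the surface as working channels only in complexes with GluK1 to GluK3. NETO1 and NETO2 are single-pass membrane proteins that bind the receptors and change their gating. In the hippocampus, kainate receptors act on both sides of the synapse that granule cell mossy fibres make on CA3 pyramidal cells, and GluK1 is best known from GABAergic interneurons.

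The pore loop holds the Q/R site, a glutamine codon that RNA editing enzymes of the ADAR family can recode in Grik1 and Grik2 transcripts. The 45 coding bases around that codon are shown for the 5 subunit genes because they place the editable subunits beside those not known to be edited. They were read from GENCODE M21 transcripts on GRCm38, 5′ to 3′ on the coding strand, with the glutamine codon in capitals.
Grik1: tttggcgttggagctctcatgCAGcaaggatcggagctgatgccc
Grik2: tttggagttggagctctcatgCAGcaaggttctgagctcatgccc
Grik3: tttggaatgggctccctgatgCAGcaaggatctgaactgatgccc
Grik4: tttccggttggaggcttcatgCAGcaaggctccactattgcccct
Grik5: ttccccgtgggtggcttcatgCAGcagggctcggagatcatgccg
All 5 genes carried CAG at this codon in the reference. Grik1 and Grik2 shared 41 of the 45 bases, Grik4 and Grik5 shared 31, and Grik3 and Grik4 shared 24, the lowest number among the 10 pairs. The codon lies at chr16:87940542-87940544 in Grik1, chr10:49244329-49244331 in Grik2, chr4:125691207-125691209 in Grik3, chr9:42547623-42547625 in Grik4 and chr7:25022497-25022499 in Grik5, all within coding exons. The stretch crosses an exon junction in Grik1, Grik2 and Grik3 and lies in 1 exon in Grik4 and Grik5. Gene counts carry no information on how many transcripts were edited.

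Across whole coding sequences, Grik1 and Grik2 were 73.4% identical, Grik4 and Grik5 were 73.4% identical, and Neto1 and Neto2 were 70.7% identical. The longest run of identical bases between any subunit pair was 38 bases, between Grik3 and Grik5. Neto1 on chromosome 18 shares 219 exonic bases with the antisense gene AC113599.1, Neto2 on chromosome 8 shares 20 with the microRNA gene Mir8109 on the opposite strand, and Grik4 on chromosome 9 shares 59 with Gm24420 on its own strand. Whether counting used strand is not given in the sources used here, so reads in those overlaps cannot be assigned with certainty.

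Grik5 was by far the most abundant of the 7 genes per length of annotated exons. Its level had a median of 51.8 CPM (counts scaled to a common library size) per kb of exonic sequence over the 24 libraries, with a range of 36.6 to 67.4. On the same per-kb scale the medians of the auxiliary genes were 10.3 for Neto2 (range 5.87 to 14.7) and 7.94 for Neto1 (range 5.30 to 13.8). Among the other subunits, the median level per kb was 9.29 for Grik3 (range 5.81 to 19.2), 7.03 for Grik4 (range 3.80 to 13.7), 6.25 for Grik2 (range 3.12 to 8.88) and 2.67 for Grik1 (range 1.38 to 3.95). Grik5 did not overlap Neto2, the next gene in this order, in any library, whereas every later neighbour pair overlapped in range. Set among 13 other ionotropic glutamate receptor genes, Grik5 ranked 3rd of 20 by median level per kb, after the AMPA receptor genes Gria1 (172.4) and Gria2 (61.9) and before Grin1 (39.8), the obligate NMDA receptor subunit. Grik1 ranked 17th. The length counts all annotated exons of a gene, 5.17 kb for Grik5 and 9.70 kb for Grin1. In CPM not divided by length, group means were 362 to 459 for Grin1 and 226 to 303 for Grik5. The order of Grik5 and Grin1 thus depends on the length used.

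**Figure D1:**
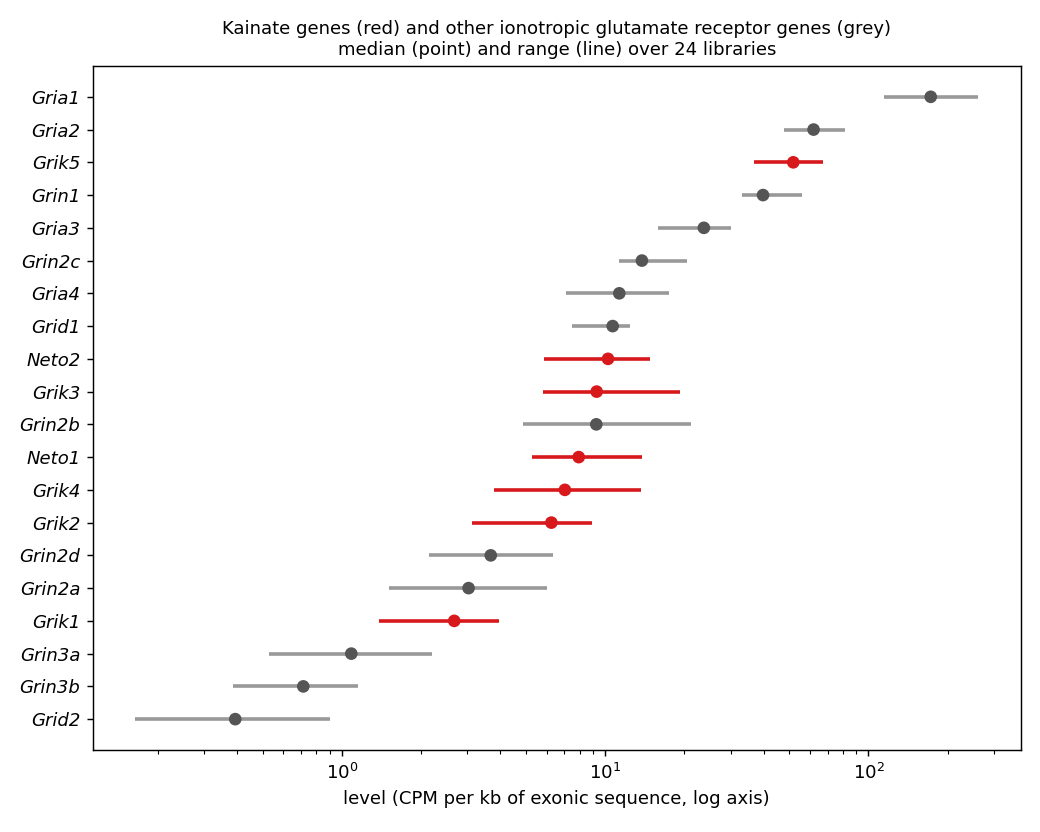
Level in CPM per kb of exonic sequence (log axis) of the 7 kainate receptor genes (red) and 13 other ionotropic glutamate receptor genes (grey), with the median (point) and range (line) over 24 libraries. Grik5 lies at a median of 51.8, and the other 6 kainate receptor genes lie between 2.67 and 10.3.

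Of the summed per-kb level of the 5 subunit genes, Grik5 made up a median of 66.9% per library (57.7% to 75.5%). The other median shares were 12.4% for Grik3, 9.15% for Grik4, 7.85% for Grik2 and 3.15% for Grik1. GluK5 needs a GluK1 to GluK3 partner to form a channel, and the transcripts of those 3 genes together made up less of this per-kb sum than Grik5 in every library. This order also depends on the length used, 13.2 kb for Grik2 against 5.17 kb for Grik5. In CPM not divided by length, APP/PS1 control replicate 3 had 26.6 of Grik1, 56.3 of Grik2 and 172.5 of Grik3, together above its 225 of Grik5. The same held in WT control replicate 1, and in the other libraries Grik5 stayed above the 3 together. The ratio of Grik4 to Grik1 per kb lay between 1.12 and 8.18 across libraries. Both ends of that ratio lay in the BCI-838 plus exercise group. The ratio of Neto1 to Neto2 per kb ran from 0.503 to 1.40, also with its highest value in the BCI-838 plus exercise group.

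Some libraries stood apart in what tissue they held. Prox1, the transcription factor that marks dentate granule cells, was at 14.2 CPM in WT control replicate 3 and 37.0 CPM in APP/PS1 control replicate 3, against 53.7 to 175 CPM in the other 22 libraries. None of the 10 granule cell markers was at 0 in any library. Ttr, a choroid plexus gene, exceeded 100 CPM in 3 APP/PS1 control libraries and 1 BCI-838 plus exercise library. Summed dorsal midbrain markers were at 33.0 to 62.2 CPM in all 4 BCI-838 libraries, against 1.44 to 67.1 CPM elsewhere. Summed thalamus markers were at 879 CPM in WT control replicate 2, against 27.8 to 490 CPM in the other libraries. In a bulk library, fewer cells of a type and less RNA per cell cannot be told apart. App was at 2467 to 4054 CPM in the 19 APP/PS1 libraries, against 1452 to 2073 CPM in the 5 WT libraries, as the genotype labels say.

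The subunits that can form channels alone come first. Grik1 was at 11.8, 17.9, 10.4, 22.8 and 12.4 CPM in the 5 BCI-838 plus exercise libraries. Its levels were 21.1, 21.3, 22.6 and 25.1 CPM with BCI-838 and 18.1, 17.5, 18.0, 23.0 and 16.9 CPM with exercise. In controls Grik1 was at 21.8, 14.0, 26.6, 9.39 and 9.28 CPM in APP/PS1 mice and at 26.4, 12.7, 18.0, 13.7 and 15.9 CPM in WT mice. The 4 BCI-838 libraries lay close together and high, while those of BCI-838 plus exercise and of both control groups were spread more widely, and all groups overlapped.

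Grik2, which encodes the principal channel-forming subunit of hippocampal pyramidal and granule cells, was at 103, 78.6, 118, 66.2 and 56.6 CPM with BCI-838 plus exercise. It was at 97.2, 104, 96.3 and 80.0 CPM with BCI-838, and between 65.9 and 92.2 CPM (median 74.2) with exercise. APP/PS1 controls had 56.3 to 94.5 CPM (median 78.9) and WT controls 41.3 to 88.2 CPM (median 86.2) of Grik2. The lowest value of all was that of WT control replicate 3, the library with the least Prox1, and all groups overlapped.

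Grik3, whose product is a low-sensitivity subunit found at mossy fibre terminals, was at 55.6, 97.4, 66.4, 81.6 and 52.1 CPM with BCI-838 plus exercise. It was between 76.7 and 95.1 CPM (median 86.8) with BCI-838 and between 64.5 and 98.1 CPM (median 87.5) with exercise. In APP/PS1 controls Grik3 was at 88.2, 93.2, 172.5, 62.0 and 70.2 CPM, and in WT controls it was between 65.2 and 106 CPM (median 78.7). The value of 172.5 CPM, in APP/PS1 control replicate 3, stood far above the other 23 libraries.

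Of the high-affinity subunits, Grik4 is known for its restricted pattern, strong in CA3 and the dentate gyrus. Grik4 was at 81.5, 46.5, 75.4, 22.6 and 53.6 CPM with BCI-838 plus exercise, a group that held both the highest and the lowest library of all. It was at 42.2, 41.5, 31.9 and 44.2 CPM with BCI-838 and at 38.3, 40.9, 38.1, 23.3 and 38.4 CPM with exercise. In controls Grik4 was at 42.4, 44.7, 26.4, 53.6 and 49.3 CPM in APP/PS1 mice and at 28.1, 58.5, 37.1, 51.9 and 41.7 CPM in WT mice. In every group but BCI-838, the lowest Grik4 library was also the highest for Grik1. These libraries were BCI-838 plus exercise replicate 4, exercise replicate 4, APP/PS1 control replicate 3 and WT control replicate 1.

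Grik5 was at 322, 295, 327, 250.3 and 323 CPM with BCI-838 plus exercise. It was at 229.7, 254, 219 and 202 CPM with BCI-838 and at 321, 307, 264, 232 and 348 CPM with exercise. Control levels of Grik5 were 247, 272, 225, 278 and 325 CPM in APP/PS1 mice and 189, 235, 274, 299 and 261 CPM in WT mice. Grik5 varied least between libraries of the 7 genes, with a coefficient of variation of 16.3%, against 32.5% for Grik4. All but 1 of the BCI-838 plus exercise libraries lay above every BCI-838 library.

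Among the auxiliary genes, Neto1 was at 101, 72.9, 115, 56.4 and 78.9 CPM with BCI-838 plus exercise. It was at 59.5, 79.1, 59.7 and 53.1 CPM with BCI-838 and at 53.9, 45.0, 82.8, 52.4 and 67.8 CPM with exercise. APP/PS1 controls had 45.8 to 82.5 CPM (median 64.8) and WT controls 44.2 to 90.5 CPM (median 76.1) of Neto1. The highest pair of libraries, BCI-838 plus exercise replicates 1 and 3, was also the highest pair for Grik4.

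Neto2 was between 60.7 and 81.1 CPM (median 69.1) with BCI-838 plus exercise, between 62.9 and 73.3 CPM (median 71.5) with BCI-838, and between 36.0 and 76.5 CPM (median 59.3) with exercise. APP/PS1 controls had 42.8 to 90.4 CPM (median 52.1) of Neto2 and WT controls 58.0 to 77.9 CPM (median 60.5). The highest Neto2 library of each control group was the one with the least Prox1, and all groups overlapped.

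**Figure D2:**
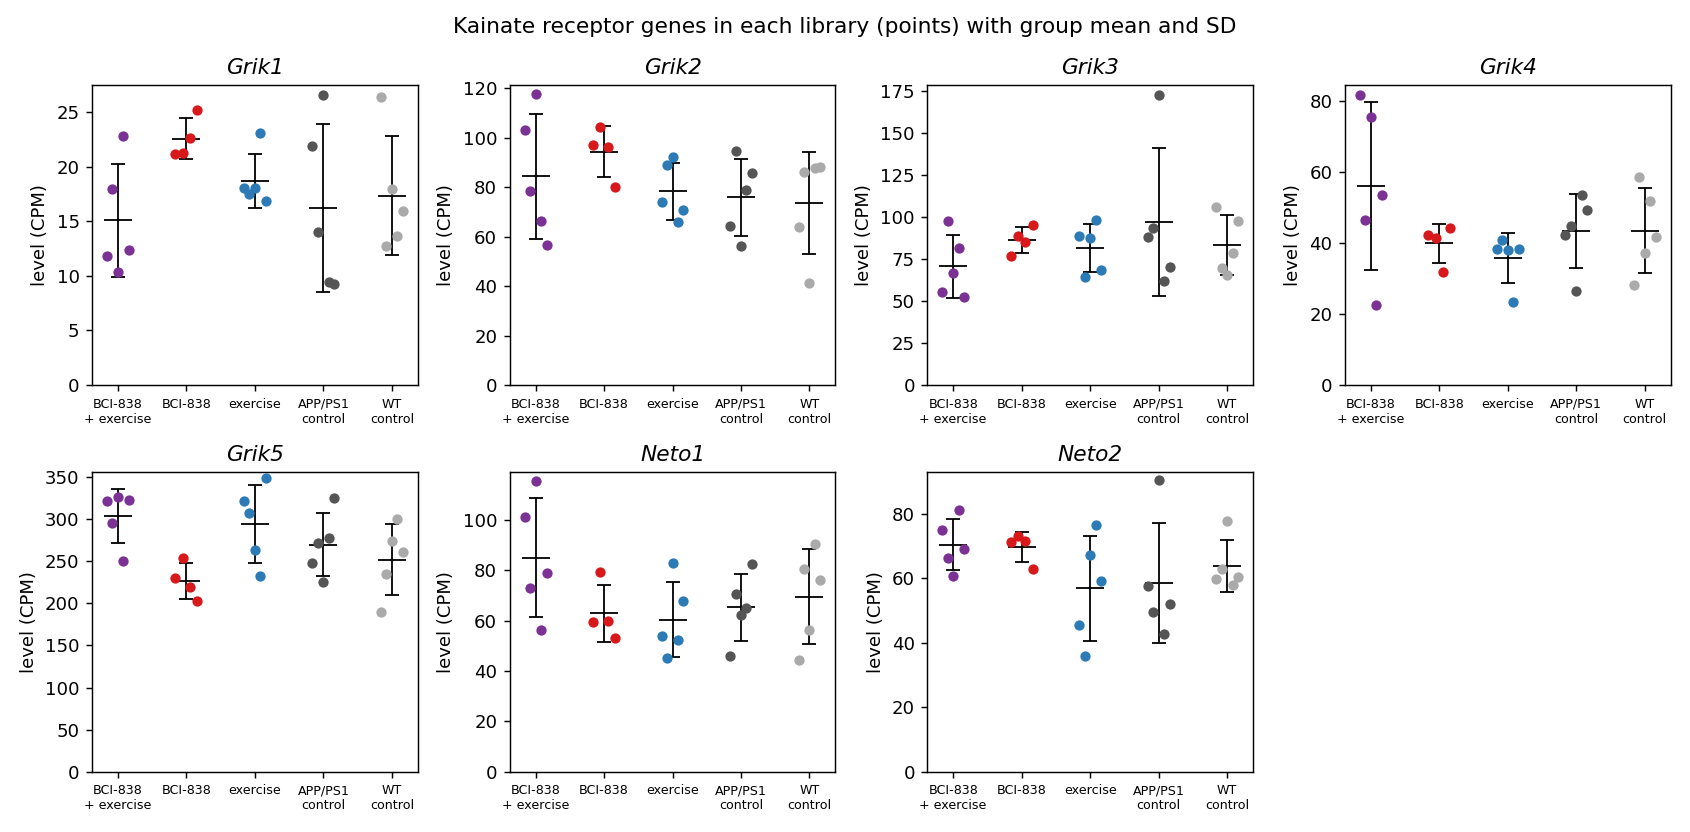
Level in CPM (vertical axes from 0) of each kainate receptor gene in each library (points), with the group mean and SD (bars), for BCI-838 plus exercise, BCI-838, exercise, APP/PS1 control and WT control. All groups overlap for every gene, and the Grik4 points of BCI-838 plus exercise span 22.6 to 81.5 CPM.

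Between APP/PS1 control and WT control mice no kainate receptor gene passed the test, and every log2 fold change lay within 2 standard errors of 0. The log2 fold changes (APP/PS1 control over WT control) were -0.09 ± 0.26 for Grik1, 0.05 ± 0.20 for Grik2, 0.22 ± 0.22 for Grik3, -0.01 ± 0.26 for Grik4, 0.10 ± 0.12 for Grik5, -0.09 ± 0.21 for Neto1 and -0.13 ± 0.18 for Neto2, each with its standard error (SE, n = 5 and 5). Here and below, 0 of the 7 genes passed a Benjamini-Hochberg adjusted p of 0.05 in edgeR's quasi-likelihood F test, and 0 passed in DESeq2. For this genotype comparison edgeR called 2 of 18286 genes, or 0.0109%, and at an unadjusted p under 0.05 it found 0 of the 7 genes against 2.76% of all genes. The groups overlapped for all 7 genes, where 0.186% of all genes lay higher and 0.126% lower with no overlap. The interval of 2 SE ran from -0.15 to 0.34 for Grik5 and from -0.62 to 0.44 for Grik1. Without the 4 libraries of over 100 Ttr CPM, which leaves 2 APP/PS1 controls, the log2 fold change of Grik1 was 0.48, and the sign also turned for Grik2 (-0.28), Grik5 (-0.092) and Neto2 (0.21). Without APP/PS1 control replicate 3 alone the log2 fold change of Grik3 was -0.085.

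With BCI-838 alone, Grik1 averaged 22.5 ± 1.87 CPM, against 16.2 ± 7.72 CPM in APP/PS1 controls (SD, n = 4 and 5), and Grik5 averaged 226 ± 21.5 CPM, against 269 ± 37.5 CPM. Neither difference passed the test. Log2 fold changes (BCI-838 over APP/PS1 control) were 0.47 ± 0.28 for Grik1 and -0.25 ± 0.13 for Grik5 (SE), with edgeR adjusted p of 0.589 and 0.529. Grik2 had a log2 fold change of 0.31 ± 0.21 and Neto2 of 0.25 ± 0.19, while Grik3, Grik4 and Neto1 lay between -0.17 and -0.05. All genes gave 0% called, and 0 of the 7 genes against 10.2% of all genes had an unadjusted p under 0.05. All 7 genes overlapped between these groups, against 2.51% of all genes higher and 2.20% lower with no overlap. Without the libraries of over 100 Ttr CPM the log2 fold change was -0.10 for Grik1, -0.062 for Grik5 and 0.64 for Grik2. Summed choroid plexus markers ran from 26.7 to 35.4 CPM with BCI-838, against 25.5 to 1741 CPM in APP/PS1 controls. Summed GABAergic interneuron markers, 9 of 10 measured and none at 0, ran from 1092 to 1324 CPM with BCI-838, against 601 to 1170 CPM in APP/PS1 controls, and summed dorsal midbrain markers ran from 33.0 to 62.2 CPM, against 3.67 to 55.9 CPM. The part of the interneuron markers in the Grik1 value was not tested.

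No kainate receptor gene passed the test with exercise. Grik4 averaged 35.8 ± 7.08 CPM with exercise, against 43.3 ± 10.4 CPM in APP/PS1 controls (SD, n = 5 each), a log2 fold change (exercise over APP/PS1 control) of -0.27 ± 0.26. Log2 fold changes were -0.26 ± 0.22 for Grik3, 0.21 ± 0.26 for Grik1 and 0.13 ± 0.12 for Grik5, and between -0.11 and 0.05 for Grik2, Neto1 and Neto2 (SE, edgeR adjusted p = 1.00 for each). edgeR called 0.00547% of all genes, and 0 of the 7 genes against 5.44% of all genes had an unadjusted p under 0.05. Again all 7 genes overlapped, with 0.257% of all genes higher and 0.328% lower without overlap. Without APP/PS1 control replicate 3, the library that held 172.5 CPM of Grik3, the log2 fold change of Grik3 was 0.047.

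BCI-838 plus exercise gave Grik3 an average of 70.6 ± 18.8 CPM, against 97.2 ± 44.0 CPM in APP/PS1 controls (SD, n = 5 each). Its log2 fold change (BCI-838 plus exercise over APP/PS1 control) of -0.46 ± 0.23 did not pass the test (edgeR adjusted p = 0.478), and it was -0.16 without APP/PS1 control replicate 3. Log2 fold changes were 0.38 ± 0.21 for Neto1, 0.37 ± 0.26 for Grik4, 0.27 ± 0.18 for Neto2, 0.17 ± 0.12 for Grik5, 0.15 ± 0.20 for Grik2 and -0.10 ± 0.27 for Grik1. Over all genes 0% were called, and 0 of the 7 genes against 10.6% of all genes had an unadjusted p under 0.05. Overlap was seen for all 7 genes, where 0.399% of all genes were higher and 0.607% lower with none. This comparison and both of the preceding ones share the APP/PS1 control libraries.

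The high-affinity subunit gene Grik4 and the auxiliary gene Neto1 had the largest differences when BCI-838 was added to exercise. Grik4 averaged 55.9 ± 23.7 CPM with BCI-838 plus exercise, against 35.8 ± 7.08 CPM with exercise, and Neto1 averaged 85.0 ± 23.4 CPM, against 60.4 ± 14.98 CPM (SD, n = 5 each). Log2 fold changes (BCI-838 plus exercise over exercise) were 0.64 ± 0.26 for Grik4 and 0.49 ± 0.21 for Neto1 (SE). The unadjusted p was 0.0232 and 0.0297 in that order of genes, and neither passed adjustment (edgeR adjusted p = 0.217 and 0.240). These 2 of 7 genes at an unadjusted p under 0.05 compare with 17.6% of all genes, of which 0% were called. All 7 genes overlapped between both groups, where 0.536% of all genes were higher and 0.864% lower with no overlap. For Grik4, 4 of 5 BCI-838 plus exercise libraries lay above every exercise library and 1 lay below every one. Summed oligodendrocyte markers, all 5 measured and none at 0, ran from 1915 to 10698 CPM (median 4515) with BCI-838 plus exercise, against 4705 to 7473 CPM (median 6700) with exercise. In that order, medians were 1357 and 939 CPM for summed CA field markers and 1.78 and 18.3 CPM for summed dorsal midbrain markers. With the dorsal midbrain covariate the log2 fold change was 0.55 for Grik4 and 0.37 for Neto1. With the CA field minus granule cell covariate it was 0.86 for Grik4 and 0.61 for Neto1. What part these tissues had in the Grik4 and Neto1 values was not tested. Neto2 had a log2 fold change of 0.31 ± 0.18, Grik1 of -0.31 ± 0.27, and Grik2, Grik3 and Grik5 lay between -0.20 and 0.11.

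Grik5 gave the smallest p of the 7 genes when exercise was added to BCI-838. It averaged 303 ± 32.2 CPM with BCI-838 plus exercise, against 226 ± 21.5 CPM with BCI-838 (SD, n = 5 and 4), a log2 fold change (BCI-838 plus exercise over BCI-838) of 0.42 ± 0.13 with a 2 SE interval of 0.16 to 0.69. The unadjusted p of 0.00401 ranked 374 among 18286 genes and did not pass adjustment in edgeR (adjusted p = 0.193). limma-voom with quality weights did call Grik5 (log2 fold change 0.44, adjusted p = 0.0291), in a fit that called 936 genes, and over all settings tried the adjusted p ran from 0.0291 to 1.00. The 1.00 came with the dorsal midbrain marker level as a covariate, where the log2 fold change was 0.21. Summed dorsal midbrain markers, of which all 6 were measured and 5 were at 0 in at least 1 of the 24 libraries, ran from 1.44 to 23.3 CPM with BCI-838 plus exercise, against 33.0 to 62.2 CPM with BCI-838. Because the groups did not overlap in these markers, the fit with that covariate cannot tell the group from the marker level. Summed neocortex markers, all 4 measured and none at 0, ran from 71.6 to 106.9 CPM with BCI-838 plus exercise, against 107.2 to 149 CPM with BCI-838, and their part in the Grik5 value was not tested.

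The other 6 genes did not pass in that comparison. Grik1 averaged 15.1 ± 5.17 CPM with BCI-838 plus exercise, against 22.5 ± 1.87 CPM with BCI-838, and 4 of 5 BCI-838 plus exercise libraries lay below every BCI-838 library. Its log2 fold change was -0.58 ± 0.28 (SE, edgeR adjusted p = 0.350). Log2 fold changes were 0.49 ± 0.28 for Grik4, 0.44 ± 0.23 for Neto1, -0.29 ± 0.24 for Grik3, -0.16 ± 0.21 for Grik2 and 0.01 ± 0.19 for Neto2. With the dorsal midbrain covariate, in which these groups did not overlap, the log2 fold change was -0.21 for Grik1, 0.26 for Grik4, 0.14 for Neto1 and 0.069 for Grik3. With the CA field minus granule cell covariate it was -0.039 for Grik2. At an unadjusted p under 0.05 stood 1 of 7 genes against 14.3% of all genes, and 0% of all genes were called. All 7 genes overlapped between the groups, where 4.30% of all genes were higher and 3.94% lower with no overlap.

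The interaction asks whether the effect of BCI-838 differs with and without the wheel. Its log2 values were -0.78 ± 0.39 for Grik1, 0.76 ± 0.38 for Grik4, 0.55 ± 0.31 for Neto1 and 0.29 ± 0.18 for Grik5 (SE, edgeR adjusted p of 0.524, 0.538, 0.582 and 0.618). Grik2, Grik3 and Neto2 lay between -0.21 and 0.05. Without the libraries of over 100 Ttr CPM the interaction was -0.14 for Grik1, 0.44 for Grik4 and 0.082 for Grik5, and with the dorsal midbrain covariate it was 0.26 for Neto1. None of the 7 genes had an unadjusted p under 0.05, against 9.60% of all genes, of which 0% were called. In the test of any difference among the 5 groups, the smallest p among the members was that of Grik5 (edgeR unadjusted p = 0.0251, adjusted p = 0.303). It was the single member with an unadjusted p under 0.05, where edgeR called 0.0273% of all genes and 14.1% had an unadjusted p under 0.05. limma-voom called 1 of the 7 genes in this test, in a fit that called 1663 genes.

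**Figure D3:**
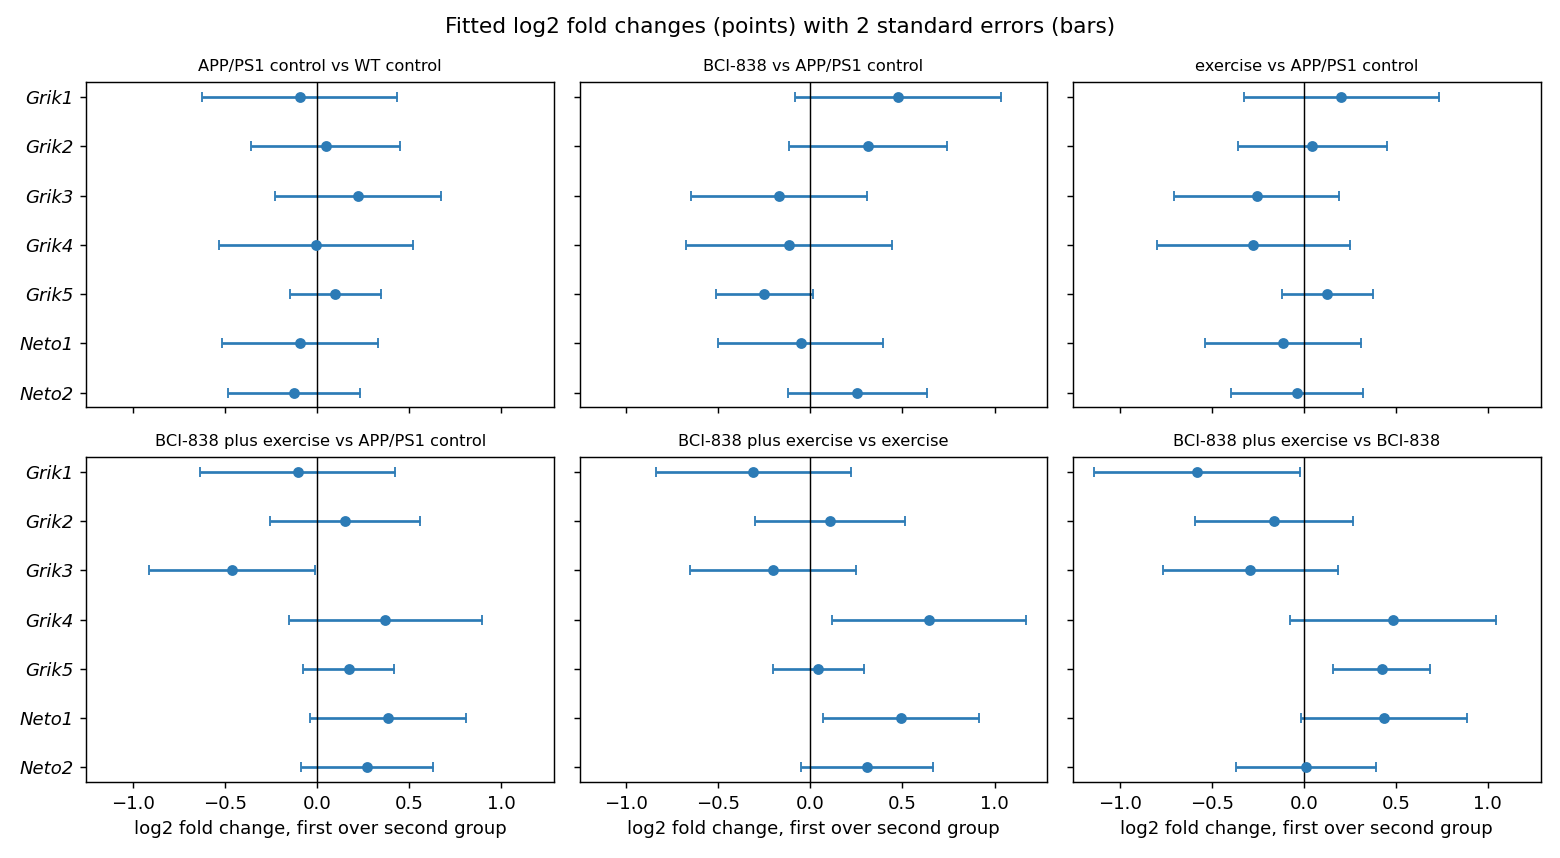
Fitted log2 fold change of each kainate receptor gene (points) with 2 SE (bars) in the 6 pairwise comparisons, the first named group over the second. The bars of Grik5 and Grik1 do not reach 0 in BCI-838 plus exercise against BCI-838. Nor do those of Grik4 and Neto1 in BCI-838 plus exercise against exercise, or of Grik3 in BCI-838 plus exercise against APP/PS1 control. None of these passed adjustment, and those Grik1 and Grik3 values had an edgeR unadjusted p above 0.05.

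Several of the 7 genes varied with or against each other across mice. Over the 24 libraries, 11 of the 21 gene pairs had a Benjamini-Hochberg adjusted permutation p under 0.05 for Pearson's r of log2 CPM, 6 of them positive and 5 negative, and none of the 11 held Neto2. The share among pairs of other genes was not computed, so this count is not shown to be particular to the 7 genes. Grik1 stood against the high-affinity subunits and Neto1. Its r was -0.78 with Grik4 (Spearman's rho -0.81, permutation p 2e-05 and 1e-05, adjusted 0.00042 and 0.000105), where 1e-05 is the smallest p that 100000 permutations can give. Without the 2 libraries farthest from the Grik1 median it was -0.83, and with group means removed it was -0.81. Grik1 and Grik5 had r = -0.70 (rho -0.78, permutation p 9e-05 and 1e-05, adjusted 0.000882 and 0.000105), and r was -0.73 without the 2 farthest libraries and -0.74 within groups. Grik1 and Neto1 had r = -0.68 (rho -0.69, permutation p 0.00021 and 0.00025, adjusted 0.000882 and 0.00147), with -0.77 and -0.70 under the same checks.

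Grik1 and Grik3 went together, with r = 0.68 (rho 0.69, permutation p 0.00016 and 0.00028, adjusted 0.000882 and 0.00147), 0.68 without the 2 farthest libraries and 0.77 within groups. Grik4 and Neto1, both known from the mossy fibre to CA3 synapse, also went together, with r = 0.69 (rho 0.63, permutation p 0.00021 and 0.00109, adjusted 0.000882 and 0.00458), 0.65 without the 2 farthest libraries and 0.63 within groups. Grik3 had r = -0.62 with Grik4 (rho -0.52, permutation p 0.00139 and 0.0104, adjusted 0.00487 and 0.0273), -0.58 without the 2 farthest libraries and -0.63 within groups. With Grik5 it had r = -0.60 (rho -0.62, permutation p 0.00175 and 0.00171, adjusted 0.00525 and 0.00599), -0.58 and -0.62 under the same checks. The other 4 pairs were Grik4 with Grik5 (r = 0.54), Grik2 with Neto1 (0.53), Grik5 with Neto1 (0.51) and Grik2 with Grik4 (0.50), with adjusted permutation p of 0.0170, 0.0195, 0.0231 and 0.0231 for r. Their rho was 0.49, 0.53, 0.51 and 0.41, with adjusted permutation p of 0.0332, 0.0273, 0.0296 and 0.0786, so the rank correlation of Grik2 with Grik4 did not pass. Without the 2 farthest libraries these r were 0.52, 0.57, 0.38 and 0.50. The labels give no batch, so no batch could be set against these relations, and what part tissue content had in them was not tested.

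**Figure D4:**
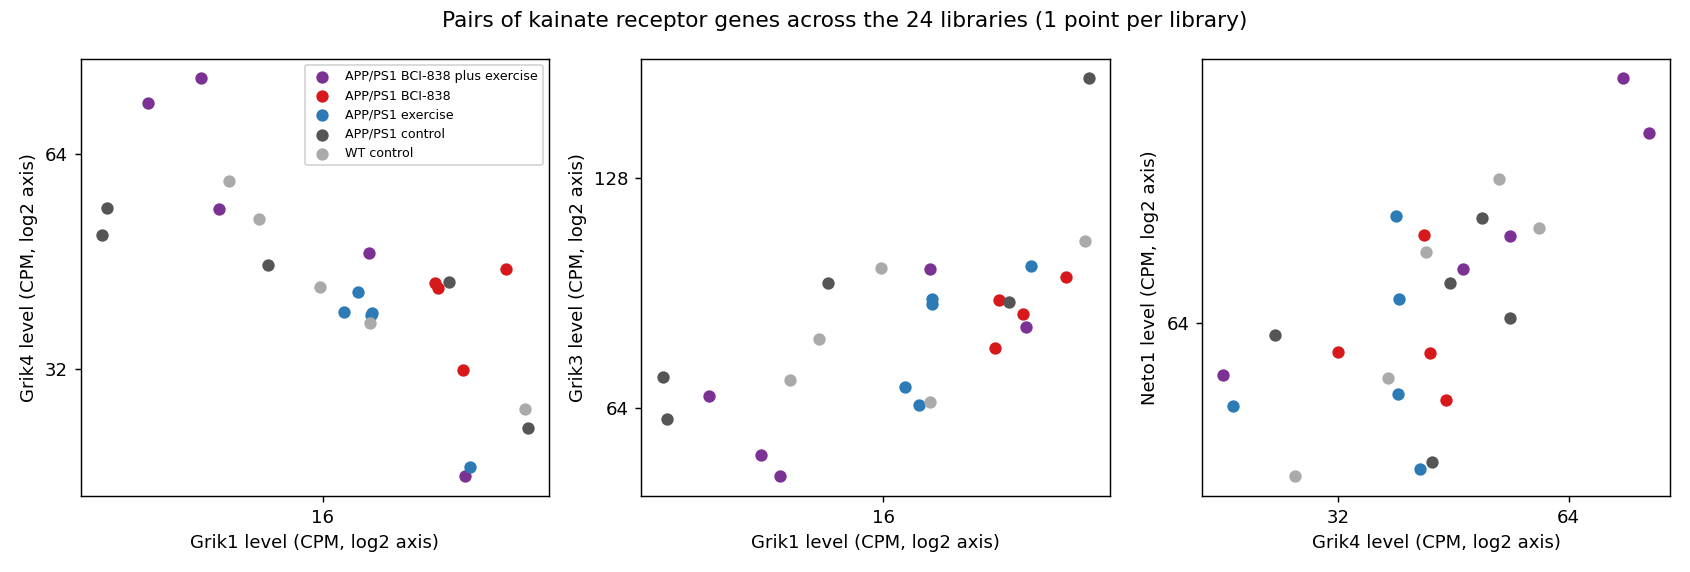
Levels in CPM (log2 axes) of Grik4 against Grik1, Grik3 against Grik1 and Neto1 against Grik4 in 24 libraries, 1 point per library, coloured by group. Libraries with more Grik1 had less Grik4 (r = -0.78) and more Grik3 (r = 0.68), and libraries with more Grik4 had more Neto1 (r = 0.69), with points of every group along each slope.

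The same genes varied with markers of cell types and neighbouring tissue. Of 84 relations between the 7 genes and the mean log2 CPM of 12 marker lists, 29 had an adjusted permutation p under 0.05 for r. The share for other genes with these lists was not computed either. For these relations the 2 farthest libraries are those farthest from the median of the marker list. Grik5 had r = -0.84 with the neocortex list of Rorb, Cux2, Fezf2 and Foxp2 (rho -0.84, permutation p 1e-05 for both, adjusted 0.00084 for both), -0.84 without the 2 farthest libraries and -0.81 within groups. Grik1 had r = 0.73 with that list (rho 0.74, permutation p 5e-05 and 4e-05, adjusted 0.0014 and 0.00168), 0.64 without the 2 farthest libraries and 0.71 within groups. Both genes therefore moved with the neocortex markers in opposite directions, and what part the dissection had in this was not tested. With the dorsal midbrain list Grik5 had r = -0.62 (rho -0.67, permutation p 0.00157 and 0.00052, adjusted 0.0121 and 0.00437), -0.54 without the 2 farthest libraries and -0.47 within groups.

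Grik1, the subunit known from interneurons, had r = 0.59 with the GABAergic interneuron list (rho 0.71, permutation p 0.00247 and 0.00018, adjusted 0.0148 and 0.00302), 0.47 without the 2 farthest libraries and 0.65 within groups. Neto2 had r = 0.64 with the same list (rho 0.67, permutation p 0.00088 and 0.0004, adjusted 0.0106 and 0.0042), 0.69 and 0.64 under the same checks. Its r with the oligodendrocyte precursor list was 0.67 (rho 0.64, permutation p 0.00028 and 0.00085, adjusted 0.00588 and 0.00649), 0.70 and 0.66 under those checks. With the dentate granule cell list Neto2 had r = -0.66 (rho -0.73, permutation p 0.00048 and 7e-05, adjusted 0.00806 and 0.00196), -0.59 both without the 2 farthest libraries and within groups. Grik4 had r = -0.74 with the oligodendrocyte list (rho -0.67, permutation p 2e-05 and 0.00048, adjusted 0.00084 and 0.00437), -0.56 without the 2 farthest libraries and -0.71 within groups. For Grik4 the r with the dentate granule cell list was 0.41 and with the CA field list 0.10, with adjusted permutation p of 0.112 and 0.721 (rho 0.40 and -0.03, adjusted permutation p 0.130 and 0.913).

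Grik2 had r = 0.60 with the dentate granule cell list (rho 0.40, permutation p 0.00203 and 0.0518, adjusted 0.0131 and 0.128). Without the 2 farthest libraries, which are WT control replicate 3 and APP/PS1 control replicate 3, this r was 0.31. The r over all libraries therefore leaned on those 2. With group means removed and those 2 libraries kept, r was 0.85, and it was not computed within groups without them. With the oligodendrocyte list Grik2 had r = -0.63 (rho -0.69, permutation p 0.00135 and 0.0003, adjusted 0.0121 and 0.0036) and -0.70 within groups. It was -0.66 without the 2 libraries farthest for that list, BCI-838 plus exercise replicates 1 and 4. Without the 2 libraries of least Prox1 it was -0.62.

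**Figure D5:**
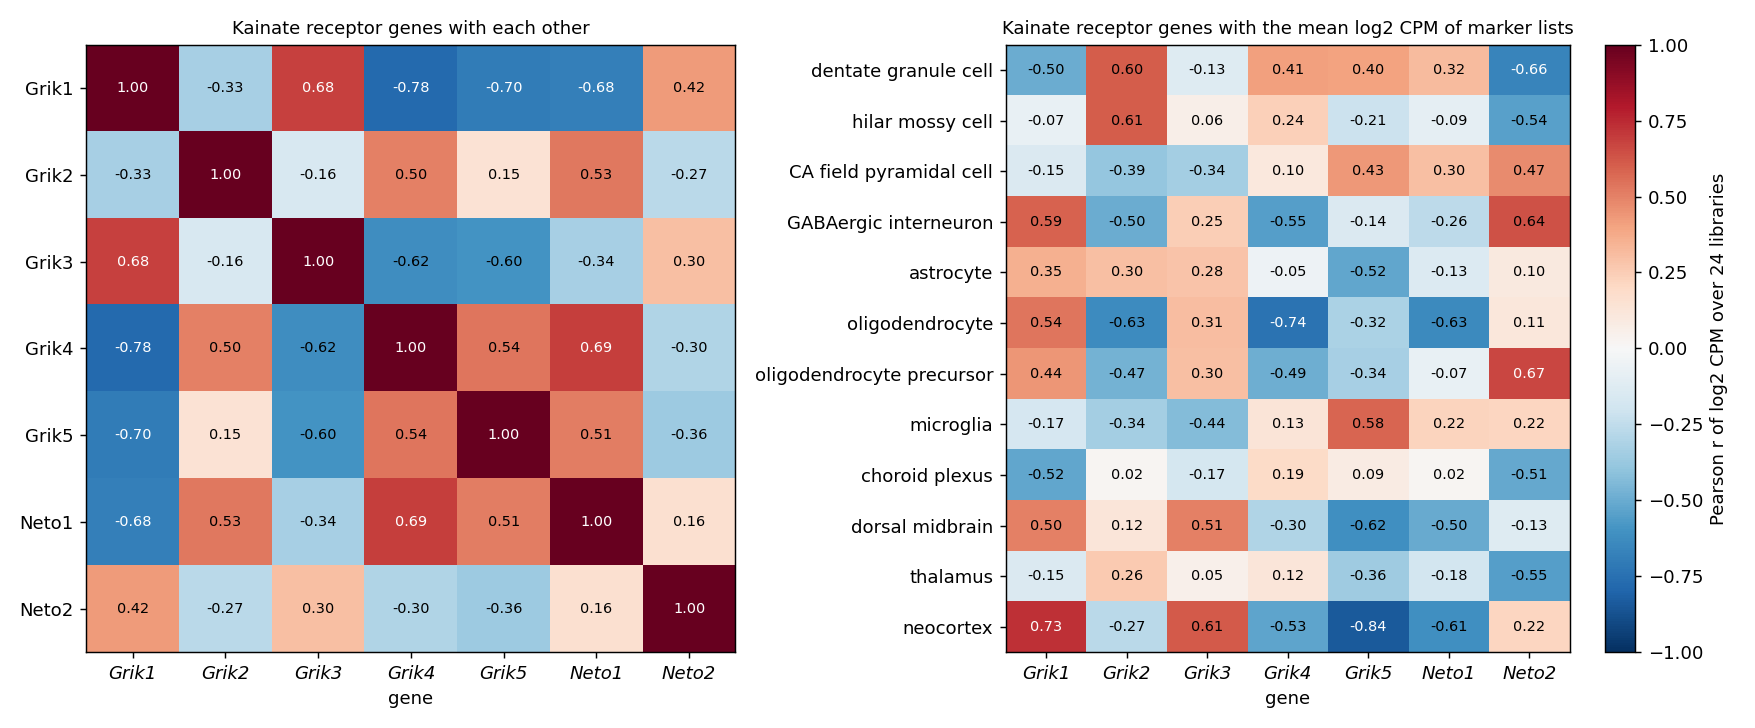
Pearson's r of log2 CPM over 24 libraries (colour scale and printed values) between the 7 kainate receptor genes (left) and between each gene and the mean log2 CPM of 12 marker lists (right). Grik1 is negative with Grik4 (-0.78), Grik5 (-0.70) and Neto1 (-0.68), and Grik5 is negative with the neocortex list (-0.84).

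The genes whose log2 CPM followed each member most closely over the 24 libraries, out of 15072 searched, are given as a description. For Grik1 they were Tshz2 (r = 0.976), Tox (0.955) and Ldb2 (0.931), and for Grik2 they were Pkia (0.959), Apaf1 (0.948) and Smad3 (0.946). Grik3 was followed most closely by Ssbp2 (r = 0.907), Cadm1 (0.800) and Gpr21 (0.777). For Grik4 they were Cpne4 (r = 0.871), which is also on the CA field list, Rtn4rl1 (0.853) and Erc2 (0.851), and for Grik5 they were Bai2 (0.928), Chst1 (0.920) and Arhgef25 (0.913). The closest to Neto1 were Ccnd2 (r = 0.947), Clstn2 (0.934) and Samd8 (0.932), and those to Neto2 were Pnpla8 (0.919), Ppm1k (0.910) and Itfg1 (0.897). None of these genes was among the 3 closest to more than 1 member.

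Other genes of the pathway were read from lists: 13 other ionotropic glutamate receptor genes, the RNA editing enzymes Adar and Adarb1, 3 mossy fibre organisers of kainate receptors and 12 scaffold and trafficking partners. edgeR called 0 of these 30 genes in any comparison. In APP/PS1 control against WT control, 1 of the 13 other receptor genes had a positive log2 fold change and 12 a negative one, with a median of -0.14 against -0.01 over all genes, and 0 had an unadjusted p under 0.05. Adarb1, the enzyme that edits the Q/R sites of glutamate receptor transcripts, had a log2 fold change of -0.45 ± 0.22 in that comparison (edgeR adjusted p = 1.00). Adarb1 ran from 230.4 to 312 CPM (median 253) in APP/PS1 controls, against 215 to 700.1 CPM (median 302) in WT controls, where the highest value is that of WT control replicate 2 alone. That library also held the most thalamus marker RNA of all libraries (summed 879 CPM), and its part in the Adarb1 value was not tested.

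In BCI-838 plus exercise against BCI-838, 9 of the 13 other receptor genes had a positive log2 fold change, with a median of 0.23 against -0.01 over all genes. An unadjusted p under 0.05 was found for 7 of these 13 genes, against 14.3% of all genes, and 0 were called. The smallest p were those of Grin2b, an NMDA receptor subunit (0.78 ± 0.26), and Gria1, an AMPA receptor subunit (0.56 ± 0.19), with edgeR adjusted p of 0.207 for each. Dlg4, which encodes the postsynaptic scaffold PSD-95, had a log2 fold change of 0.42 ± 0.15 and no overlap between the groups (edgeR adjusted p = 0.215), where 4.30% of all genes lay above with no overlap. Nor did these groups overlap in summed dorsal midbrain markers (1.44 to 23.3 against 33.0 to 62.2 CPM) or neocortex markers (71.6 to 106.9 against 107.2 to 149 CPM). Group and tissue content therefore cannot be told apart in these values.

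In BCI-838 plus exercise against exercise, 8 of the 13 other receptor genes had a positive log2 fold change, with a median of 0.18 against -0.02 over all genes. Grin2b had 0.88 ± 0.24 and Grin2a, another NMDA receptor subunit, had 0.86 ± 0.28 (edgeR adjusted p = 0.131 and 0.152). Of the mossy fibre organisers, which recruit kainate receptors to the synapse on CA3 cells, Nrxn3 had 0.54 ± 0.17 (edgeR adjusted p = 0.148) and C1ql3, a secreted C1q-like ligand, had -0.28 ± 0.28. What part tissue content had in these values was not tested. Klhl24, a Kelch-family protein that binds GluK2, had a log2 fold change of 0.28 ± 0.09 in BCI-838 against APP/PS1 control, with every BCI-838 library above every control library (edgeR adjusted p = 0.309), where 2.51% of all genes lay above with no overlap.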

How the data were processed

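RNA-seq of the dentate gyrus was deposited as whole-number read counts per gene for the whole series. The submitters' processing notes name STAR, HTSeq, DESeq and the build mm10 for the authors' processing. Tool versions, strandedness and read layout: not given in the sources used here. Normalised values, deposited as a second table, were not used.

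The deposited counts were filtered with filterByExpr (minimum count 10, minimum total 15), which kept 18286 genes. After TMM scaling, 1 model with a coefficient per group was fitted to the 24 libraries together. The test was the robust quasi-likelihood F test of edgeR 4.0.16 (R 4.3.3), and calls needed an adjusted p (Benjamini-Hochberg, all genes kept) under 0.05. SE is the size of the log2 fold change over the root of F. CPM levels use TMM-scaled library sizes, and per-kb levels divide them by the exonic length of GENCODE M21. Correlations used log2 CPM with a prior count of 2 and 100000 permutations, two-sided. The 2 farthest libraries were those farthest from the median of the first named gene of a pair, or of the marker list. Replicates are described as separate mice, and p-values measure the spread between these samples. Replicate numbers were not used to pair the libraries in the main fit.

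All 7 members were named in each comparison. Of each other list the 2 genes with the smallest p could be named, and for likeness the 3 genes with the highest r. Members and lists were chosen with earlier results of these data known. Alternatives were other scalings, filters, DESeq2 1.42.0, limma-voom 3.58.1, a replicate block, marker covariates and left-out libraries. The fit was tested on simulated data first. Nectin3 and Dlx6os1 of the marker lists had no row under those symbols.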

Additional observations from a re-analysis of the deposited data

Results flagged for a closer look

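A library was set apart where its gap to the nearest library of its group, as a part of the group's whole range, exceeded Dixon's 95% critical value (0.71 for 5 samples). Of 35 combinations of gene and group, 4 exceeded it, where chance gives about 1 in 20. Exercise replicate 4 did so for both Grik1 and Grik4. Its Grik1 level was 23.0 CPM with the nearest library at 18.1 CPM, and its Grik4 level was 23.3 CPM with the nearest at 38.1 CPM. APP/PS1 control replicate 3 had 172.5 CPM of Grik3 with the nearest library at 93.2 CPM. WT control replicate 3 had 77.9 CPM of Neto2 with the nearest at 62.8 CPM. Both of these control libraries are those with under 40 CPM of Prox1, and exercise replicate 4 had 60.0 CPM of Prox1, the lowest of its group.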

How the results depend on the processing

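The 49 log2 fold changes of the 7 genes in 7 comparisons were recomputed under 36 settings, 24 of which left out 1 library each. The sign was the same in all settings for 22 of the 49. Of the 1176 values without 1 library, 43 had the other sign, and of the 588 other values 52 did. A member was called in 1 value, Grik5 in BCI-838 plus exercise against BCI-838 with limma-voom, so that 1 of the 7 genes was called there, and 1 of the 7 in the test of any difference among the groups with limma-voom. All other settings gave 0 members called in each comparison. The cause of each change below was not tested.

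Without the libraries of over 100 Ttr CPM the log2 fold change was 0.48 for Grik1, -0.28 for Grik2, -0.092 for Grik5 and 0.21 for Neto2 in APP/PS1 control against WT control. There it was -0.10 for Grik1, 0.22 for Grik4, 0.22 for Neto1 and -0.085 for Neto2 in BCI-838 against APP/PS1 control, -0.37 for Grik1, 0.057 for Grik4 and 0.16 for Neto1 in exercise against APP/PS1 control, -0.064 for Neto2 in BCI-838 plus exercise against APP/PS1 control and 0.48 for Grik3 in the interaction. With the choroid plexus covariate it was 0.19 for Grik1, -0.058 for Grik2 and 0.12 for Neto2 in APP/PS1 control against WT control, 0.075 for Grik4, 0.023 for Neto1 and -0.012 for Neto2 in BCI-838 against APP/PS1 control, -0.17 for Grik1 in exercise against APP/PS1 control, -0.0062 for Neto2 in BCI-838 plus exercise against APP/PS1 control and 0.26 for Grik3 in the interaction. Without the 2 libraries under 40 Prox1 CPM, a setting chosen after seeing the data, it was -0.010 for Grik2, -0.16 for Grik3 and 0.079 for Grik4 in APP/PS1 control against WT control, 0.13 for Grik3 in BCI-838 against APP/PS1 control, -0.053 for Grik2, 0.047 for Grik3 and 0.16 for Neto2 in exercise against APP/PS1 control, 0.14 for Grik1 in BCI-838 plus exercise against APP/PS1 control and -0.15 for Neto2 in the interaction. With the dorsal midbrain covariate it was 0.024 for Grik4 in APP/PS1 control against WT control, 0.11 for Neto1 in BCI-838 against APP/PS1 control, 0.11 for Grik1 in BCI-838 plus exercise against APP/PS1 control, -0.050 for Grik5 in BCI-838 plus exercise against exercise, 0.069 for Grik3 and -0.072 for Neto2 in BCI-838 plus exercise against BCI-838, and 0.32 for Grik3 and -0.031 for Neto2 in the interaction. With the CA field minus granule cell covariate it was -0.027 for Grik2 in APP/PS1 control against WT control, 0.0026 for Grik4 and 0.0067 for Neto1 in BCI-838 against APP/PS1 control, -0.091 for Neto2 in BCI-838 plus exercise against BCI-838 and -0.084 for Neto2 in the interaction. With limma-voom it was 0.019 for Grik4 in APP/PS1 control against WT control, -0.059 for Grik2 in exercise against APP/PS1 control, 0.025 for Grik1 in BCI-838 plus exercise against APP/PS1 control, -0.011 for Grik5 in BCI-838 plus exercise against exercise and -0.0015 for Neto2 in BCI-838 plus exercise against BCI-838. For Grik4 in APP/PS1 control against WT control it was 0.0047 without a filter, 0.0010 with a filter of 1 CPM in 5 libraries and 0.0015 when only the compared libraries were fitted.

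The sign turned when 1 library was left out for 17 of the log2 fold changes. In APP/PS1 control against WT control their ranges were -0.34 to 0.11 for Grik1, -0.10 to 0.14 for Grik2, -0.085 to 0.35 for Grik3, -0.13 to 0.13 for Grik4 and -0.22 to 0.026 for Neto1. They were -0.30 to 0.13 for Grik3 and -0.19 to 0.037 for Neto1 in BCI-838 against APP/PS1 control, and -0.053 to 0.14 for Grik2, -0.39 to 0.047 for Grik3 and -0.18 to 0.16 for Neto2 in exercise against APP/PS1 control. They were -0.30 to 0.14 for Grik1 and -0.0039 to 0.26 for Grik2 in BCI-838 plus exercise against APP/PS1 control, -0.042 to 0.23 for Grik2 and -0.031 to 0.11 for Grik5 in BCI-838 plus exercise against exercise, -0.042 to 0.065 for Neto2 in BCI-838 plus exercise against BCI-838, and -0.34 to 0.11 for Grik3 and -0.15 to 0.19 for Neto2 in the interaction.

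Counts over all genes moved more with the tool. DESeq2 called 14 genes in APP/PS1 control against WT control, 170 in BCI-838, 61 in exercise and 82 in BCI-838 plus exercise against APP/PS1 control, 364 in BCI-838 plus exercise against exercise, 256 against BCI-838, 77 in the interaction and 494 in the test of any difference. limma-voom called 483 genes in BCI-838 against APP/PS1 control, 0 in exercise and 0 in BCI-838 plus exercise against APP/PS1 control, 1012 in BCI-838 plus exercise against exercise, 936 against BCI-838 and 1663 in the test of any difference. The compared libraries alone gave 1 for APP/PS1 control against WT control, 9 for BCI-838, 0 for exercise and 111 for BCI-838 plus exercise against BCI-838. Without the libraries under 40 Prox1 CPM the counts were 49 for BCI-838, 2 for exercise and 12 for BCI-838 plus exercise against APP/PS1 control, and 73 for any difference. The CA field minus granule cell covariate gave 12 for any difference and 1 for BCI-838 plus exercise against exercise. Exercise against APP/PS1 control gave 0 genes without the libraries of over 100 Ttr CPM and 0 with the choroid plexus covariate. With 1 library left out the counts ran from 2 to 3 for APP/PS1 control against WT control, 0 to 12 for BCI-838 and 0 to 27 for exercise (both highest without APP/PS1 control replicate 1), 0 to 17 for BCI-838 plus exercise against APP/PS1 control (highest without BCI-838 plus exercise replicate 2), 0 to 400 for BCI-838 plus exercise against exercise (highest without exercise replicate 3), 0 to 2 against BCI-838 and 3 to 65 for any difference (highest without BCI-838 plus exercise replicate 2).

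The replicate number, entered as a block (replicate block), gave 0 members called and 0 turned signs among the 49 log2 fold changes, with 0 genes called in exercise and 1 in BCI-838 plus exercise against APP/PS1 control over all genes. Of 46 pairs of libraries with the same number, 10 correlated above 0.1 in their deviations from group means, with a highest r of 0.40. Their median was -0.0055, against -0.0047 for pairs with different numbers. The share above 0.1 among pairs with different numbers was not taken, so this check cannot exclude shared handling of some libraries. Each member had at least 9.28 CPM in every library.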
